A study of Mus musculus with 2 samples.

Results

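Leukemia cells rich in transcripts of *Ly6e*, *Pik3ip1* and *H2-DMa* were examined in single-cell RNA sequencing of mouse bone marrow transformed with the *MLL-AF9* fusion. Cells with at least 500 detected genes were kept, and for each the unique molecular identifiers (UMIs, the counted cDNA molecules) of *Ly6e*, *Pik3ip1*, *H2-DMa*, *BC035044*, *Itm2c* and *Ptprcap* were summed and divided by all UMIs of the cell. The 10% of cells with the highest share formed the population, 741 of 7411 kept cells out of 8309 deposited. They are called the *Ly6e*-rich cells here, since *Ly6e* gave 52.1% and 54.0% of their UMIs of the 6 genes in the libraries labelled KO and WT.

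The study asked what loss of the histone acetyltransferase *Kat2a* does to *MLL-AF9* leukemia. All donors were C57Bl/6 mice homozygous for a floxed *Kat2a* allele (Kat2a Fl/Fl) and all received pIpC, an interferon inducer. The donors labelled KO carried *Mx1-Cre* and those labelled WT did not. Marrow taken 4 to 6 weeks after injection was transduced with an *MLL-AF9* retrovirus carrying a YFP reporter and grew into leukemia in irradiated recipients, where normal host marrow cells can survive but lack YFP. *Mx1-Cre* is driven by an interferon-responsive promoter and acts in many tissues, so excision is neither restricted to leukemia-forming cells nor complete by design. Live YFP-positive marrow cells of 4 leukemias labelled KO and 5 labelled WT were pooled by genotype into 1 library each, and the leukemia that a cell came from is not marked.

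With 1 library per genotype no difference between genotypes, and none between cell groups, was tested. Intervals throughout are exact 95% intervals for counting error only, and a gene or list is called higher or lower only where the *Ly6e*-rich cells differed from the other kept cells by 1.5-fold or more, in the same direction, in both libraries. The kept cells held 7920256 UMIs in the library labelled KO and 11669427 in that labelled WT. Barcodes were shared sparsely: 28 occurred in both libraries, in 45 kept cells of which 3 were *Ly6e*-rich. *Kat2a* UMIs went against the labels. In *Ly6e*-rich cells *Kat2a* stood at 98.5 UMIs per 1000000 UMIs of the cells (CPM) in the library labelled KO and at 12.1 CPM, 6 UMIs, in that labelled WT, and the other cells gave 95.5 and 12.2 CPM. The 3′ assay reads the end of the transcript, which excision of the floxed exons leaves in place. These counts therefore neither check nor reassign the labels, and the cause of the higher count where labelled KO was not tested.

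*MLL-AF9* joins the chromatin regulator MLL to a transcription elongation partner and keeps *Hoxa9* and *Meis1* active in myeloid progenitors, which then form a leukemia with a hierarchy from stem-like to more mature cells. LY6E is an interferon-inducible membrane protein of the Ly6 family, PIK3IP1 restrains PI3 kinase signaling, and H2-DMa is a chain of the chaperone that loads peptides on MHC class II molecules. Class II presentation runs in dendritic cells, macrophages and B cells: alpha and beta chains assemble on the invariant chain, *Cd74*, which proteases such as cathepsin S remove before H2-DM exchanges the last fragment for a peptide.

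The *Ly6e*-rich cells made up 530 of 3545 kept cells in the library labelled KO, or 14.95% (13.8 to 16.2%), and 211 of 3866 in that labelled WT, or 5.46% (4.76 to 6.22%). The ratio of the shares was 2.74, but cells of the library labelled KO were shallower, and the ratio was 1.98 when every cell was thinned to 1000 UMIs and 1.52 among cells with 1000 or more genes. The highest 10% within each library would make it equal by construction. *Ly6e*-rich cells themselves had fewer UMIs than the others, with medians of 1338.5 against 1983 in the library labelled KO and 2028 against 2639 in that labelled WT. The part of depth in the difference between libraries was not tested.

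**Figure D1:**
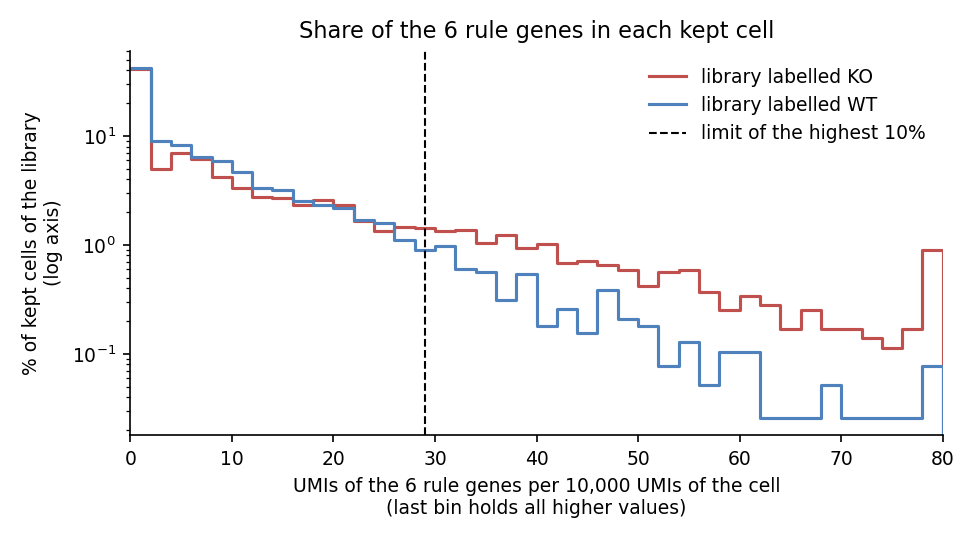
Distribution over kept cells of the UMIs of the 6 chosen (rule) genes per 10000 UMIs of the cell, as a percent of the cells of each library on a log axis, with the limit for the highest 10% dashed and all higher values in the last bin. The library labelled KO had 14.95% of its cells past the limit and that labelled WT 5.46%, and many cells of both had no UMI of the 6 genes.

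Membership rested on few molecules. The median *Ly6e*-rich cell held 6 UMIs of the 6 genes in the library labelled KO, with a range of 3 to 28, and 8 in that labelled WT, with a range of 3 to 32. At the limit, the last cell taken had 6 of 2065 UMIs (2906 CPM) and the first cell left out had 4 of 1377 UMIs (2905 CPM), both labelled KO. No gap in the share separated the population from the rest, and counts this low could hide one. Whether the cells form a continuous range was not tested. Among *Ly6e*-rich cells 324 labelled KO (61.1%) and 141 labelled WT (66.8%) had UMIs of 3 or more of the 6 genes, against 8.13% and 14.0% of the other cells.

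The values of the 6 genes follow from the choice and are given as a description. In what follows, a level in *Ly6e*-rich cells is set against that in the other kept cells, first in the library labelled KO and then in that labelled WT. *Ly6e* (chromosome 15, 74955051 to 74959905, plus strand, GRCm38) stood at 2420 CPM in *Ly6e*-rich cells and 287 CPM in the others in the library labelled KO, and at 2174 and 283 CPM in that labelled WT. *H2-DMa* (chromosome 17, 34119541 to 34139101, plus strand) stood at 819 against 108 CPM and at 623 against 93.6 CPM. Those gave most of the UMIs of the 6 genes, and *Ly6e* alone was found in 91.3% and 92.4% of the *Ly6e*-rich cells. *BC035044* (chromosome 6, 128849090 to 128891126, minus strand) stood at 726 against 97.5 and 578 against 104 CPM. *Pik3ip1* (chromosome 11, 3330401 to 3342971, plus strand) stood at 268 against 36.7 and 189 against 42.9 CPM. The remaining genes encode small membrane proteins: *Itm2c* a BRICHOS-domain protein and *Ptprcap* a partner of the phosphatase CD45. *Itm2c* (chromosome 1, 85894281 to 85908675, plus strand) stood at 252 against 37.3 and 266 against 41.7 CPM, and *Ptprcap* (chromosome 19, 4153604 to 4156751, plus strand) at 164 against 59.1 and 195 against 52.4 CPM.

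To measure each gene without its own part in the choice, the highest 10% was chosen anew from the other 5 genes. Of the 6 genes, 5 were still 1.5-fold or more higher in both libraries. The 6 genes were themselves chosen with earlier results of these data known, so their rising together is no independent support for the population. *Ly6e* was 3.57-fold higher in the library labelled KO and 3.15-fold in that labelled WT, *Itm2c* 3.85-fold and 3.95-fold, and *BC035044* 3.62-fold and 2.89-fold. *H2-DMa* was 3.16-fold and 2.90-fold higher, and *Pik3ip1* 4.03-fold and 2.46-fold. *Ptprcap* was the exception at 1.47-fold where labelled KO (0.56 on the log2 scale, 0.21 to 0.90) and 2.03-fold where labelled WT. With cells thinned to 1000 UMIs 4 genes remained, and *Pik3ip1* then had a log2 ratio of -0.031 in the library where it was smaller.

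Dividing each cell's UMIs at random into 2 sets, choosing on 1 set and measuring on the other, gave the size of the difference without the molecules that made the choice. The 6 genes together stood at 3525 CPM in the 511 cells so chosen and 749.8 CPM in the others in the library labelled KO, 4.70-fold (4.41 to 5.01), and at 2877 and 664 CPM for 230 chosen cells in that labelled WT, 4.33-fold (4.01 to 4.68). In the molecules used for choosing, the same cells had read 5034 and 4283 CPM. The split does not undo the choice of the 6 genes with earlier results of these data known. *Ly6e* alone was 5.36-fold and 5.42-fold higher in the untouched molecules, and *Ptprcap* 1.55-fold (1.08 to 2.18) and 1.62-fold (1.03 to 2.43).

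**Figure D2:**
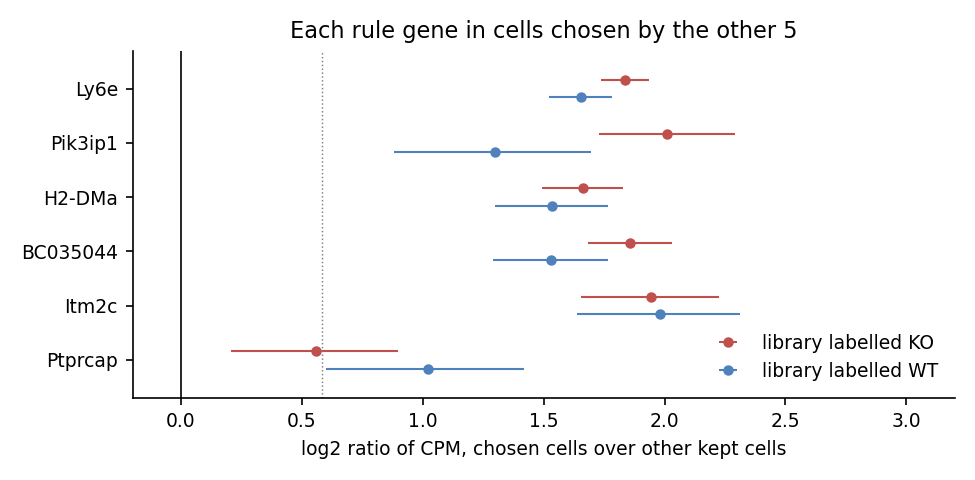
Log2 ratio of each of the 6 genes between cells chosen by the other 5 genes and the remaining cells, for both libraries, with exact 95% counting intervals. *Ptprcap* lies lowest in each library, at 0.56 where labelled KO and 1.02 where labelled WT, and *Pik3ip1* highest in that labelled KO, at 2.01.

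Among 4559 genes with enough UMIs to compare, 368 (8.07%) were higher and 295 (6.47%) lower in *Ly6e*-rich cells in both libraries, and the median log2 ratio over all of them was 0.08 in each library. Counts of list members called are to be read beside these shares. Of the 21 gene lists examined, 9 were higher in both libraries as a sum and 5 lower. The higher ones covered MHC class II and class I presentation, interferon-stimulated genes, stem and progenitor genes, monocyte genes, and B, T and NK cell and conventional dendritic cell markers, of which the last 4 rested on few UMIs or on 1 gene. The lower ones were late granule, primary granule, erythroid, S phase and mitosis genes. Stem and progenitor, monocyte and late granule genes kept their call in each of 13 other ways of choosing or comparing the cells, and MHC class II and class I genes in 12.

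The MHC class II genes gave the largest ratios among the higher lists. As a sum, 9 genes that do not include *H2-DMa* stood at 4681 against 480.4 CPM in the library labelled KO and 1447 against 174 CPM in that labelled WT, log2 ratios of 3.28 and 3.06. The 3 members with enough UMIs to compare were all higher, *Cd74*, *H2-Ab1* and *H2-DMb1*, with list medians of 3.15 and 3.66. *Cd74*, the invariant chain, stood at 2812 against 222 CPM and at 683 against 24.6 CPM. *H2-Ab1*, the beta chain of the class II molecule I-A, stood at 529 against 59.6 and 175 against 13.9 CPM. *H2-DMb1*, which pairs with H2-DMa, stood at 291 against 96.8 CPM and 236 against 110.3 CPM. Its difference, log2 ratios of 1.59 and 1.10, was the smallest of these genes, while *H2-Aa*, the I-A alpha chain, stood at 655 against 48.6 and at 173 against 5.10 CPM. In another choice only *Ly6e*-rich cells with 3 or more of the 6 genes were kept, and the rest joined the other cells. The sum of the list then gave 2.31 in the library labelled KO and 0.54 in that labelled WT and was no longer called. Among cells with 1000 or more genes it gave 0.89 and 0.83, and against other cells of the same library and total UMIs 1.64 and 3.22.

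These totals came from few cells. A *Cd74* UMI was found in 89 of 530 *Ly6e*-rich cells labelled KO, or 16.8% (13.7 to 20.3%), and in 11 of 211 labelled WT, or 5.21% (2.63 to 9.14%), against 7.69% and 1.26% of the other cells. At 1000 UMIs per cell the shares were 12.8% against 4.31% and 4.04% against 0.527%. The 10% of kept cells with the highest share of late granule transcripts, granule-rich cells, which should lack *Cd74*, showed it in 2.45% of 245 cells labelled KO (median depth 1836 UMIs) and in 0 of 496 cells labelled WT (2096 UMIs), for which the exact interval reaches 0.741%. Most *Ly6e*-rich cells therefore had no *Cd74* UMI at this depth, and 37 cells labelled KO and 3 labelled WT with 10 or more such UMIs held 95.2% and 95.3% of the *Cd74* UMIs of the population. The converse did not hold: of all 74 kept cells labelled KO with that many *Cd74* UMIs 37 were *Ly6e*-rich, as were 37.5% of the 8 labelled WT.

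Cells without a *Cd74* UMI were also compared with each other, which leaves few class II molecules to count. *H2-Ab1* rested on 15 UMIs in such *Ly6e*-rich cells labelled KO, at 20.7 against 23.9 CPM (-1.07 to 0.56 on the log2 scale), and on 2 UMIs in those labelled WT, at 4.21 against 10.9 CPM (-4.43 to 0.52), so no difference was detectable at this depth. *H2-DMb1* remained at 228 against 92.4 CPM, 2.47-fold with an interval of 1.05 to 1.55 on the log2 scale, and at 212 against 110.0 CPM, 1.93-fold with 0.64 to 1.24. The list as a sum was at 363 against 159 CPM and 309 against 139 CPM. *H2-DMa*, a chosen gene, was 1552 CPM in *Ly6e*-rich cells with a *Cd74* UMI and 698 CPM in those without in the library labelled KO, and 1151 and 599 CPM in that labelled WT. *Ctss*, cathepsin S, was likewise higher in the cells with *Cd74*, at 1518 against 690 CPM and 1583 against 557 CPM. *BC035044* was on the other side, at 377 against 784 and 240 against 593 CPM. It is a chosen gene too, and a cell rich in *H2-DMa* needs less of it to be chosen, so this contrast follows in part from the choice. In the other kept cells *BC035044* stood at 113 CPM with a *Cd74* UMI and 96.1 CPM without where labelled KO, and at 156 and 103 CPM where labelled WT. The macrophage genes *C1qa*, *C1qb* and *C1qc* had 1, 9 and 1 UMIs in the 89 cells labelled KO with *Cd74*. They had 4, 8 and 11 UMIs in the 11 labelled WT. *Ly6e*-rich cells without *Cd74* had 0 of each where labelled KO and 0, 2 and 3 where labelled WT. The other kept cells had 5, 44 and 15 UMIs and 0, 1 and 0. Of those labelled KO, 4, 29 and 11 lay in the 232 other cells with a *Cd74* UMI. In the library labelled KO *C1qb* stood at 75.5 CPM in *Ly6e*-rich cells with *Cd74* and at 49.8 CPM in these 232 cells. *C1qc* stood at 8.39 CPM, 1 UMI, and at 18.9 CPM.

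The 4 stretches printed here are the 250 bases upstream of the annotated starts of the H2-DM chains and of 2 class II chains, shown because these genes encode the chains described here. Class II promoters are known for an X box and a Y box read by the RFX, NF-Y and CIITA complex. The cores AGNAAC (X box) and GATTGG (Y box) were searched on both strands, and capitals mark every match. The sequences are from RefSeq on GRCm38.p6, written 5′ to 3′ on the strand of the gene. The stretches are H2-DMa chr17:34122582-34122831 (plus strand), H2-DMb1 chr17:34152941-34153190 (plus), H2-Aa chr17:34287824-34288073 (minus) and H2-Eb1 chr17:34305617-34305866 (plus).
H2-DMa: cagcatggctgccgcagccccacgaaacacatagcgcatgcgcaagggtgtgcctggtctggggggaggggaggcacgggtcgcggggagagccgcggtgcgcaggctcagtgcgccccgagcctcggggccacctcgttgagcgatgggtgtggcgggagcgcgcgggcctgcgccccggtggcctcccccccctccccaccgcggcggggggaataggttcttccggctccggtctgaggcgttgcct
H2-DMb1: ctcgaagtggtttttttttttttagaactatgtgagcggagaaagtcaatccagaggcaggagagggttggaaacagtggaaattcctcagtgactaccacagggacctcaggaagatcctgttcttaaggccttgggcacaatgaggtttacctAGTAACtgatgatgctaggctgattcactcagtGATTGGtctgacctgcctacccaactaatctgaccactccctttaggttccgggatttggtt
H2-Aa: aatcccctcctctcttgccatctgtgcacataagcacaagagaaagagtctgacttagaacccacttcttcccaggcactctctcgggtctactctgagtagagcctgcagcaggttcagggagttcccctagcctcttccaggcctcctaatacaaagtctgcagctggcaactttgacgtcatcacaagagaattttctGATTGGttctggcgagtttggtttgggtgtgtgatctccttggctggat
H2-Eb1: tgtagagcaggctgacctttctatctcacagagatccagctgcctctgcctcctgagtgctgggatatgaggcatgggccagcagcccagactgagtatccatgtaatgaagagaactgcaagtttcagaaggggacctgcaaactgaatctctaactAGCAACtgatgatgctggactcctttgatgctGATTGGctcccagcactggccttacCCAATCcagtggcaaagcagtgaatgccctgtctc

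A GATTGG core stands 62 bases upstream of the start in *H2-DMb1*, 49 in *H2-Aa* and 60 in *H2-Eb1*, and an AGNAAC core 95 bases upstream in *H2-DMb1* and 92 in *H2-Eb1*. *H2-Eb1* holds in addition a Y core on the opposite strand 35 bases upstream. The window of *H2-DMa* held neither core, which says only that these letters are not in it, although a second annotated start of that gene has a Y core 199 bases upstream. Only these 2 starts of *H2-DMa* were searched, so the gene is not shown to lack either core. The start used for *H2-DMb1* lies 119 bases from its main start in GENCODE. Over 32851 upstream windows of the same length 14.6% held the Y core, 42.3% the X core and 5.98% both, so a single match is common. A match is a description of the letters and not of binding.

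The genes listed for stem and progenitor cells stood higher as a sum in the same population, with *Lmo2* the largest part of that sum. As a sum the 14 listed genes were at 1689 against 902 CPM in the library labelled KO and 1693 against 857 CPM in that labelled WT, log2 ratios of 0.91 and 0.98, and 3 of the 5 comparable members were higher: *Cd34*, *Cd48* and *Lmo2*. *Cd34*, the sialomucin of hematopoietic progenitors, stood at 276 against 52.1 CPM and 143 against 26.9 CPM, 5.30-fold and 5.31-fold. At 1000 UMIs per cell 21.6% of *Ly6e*-rich cells labelled KO and 7.58% of those labelled WT had a *Cd34* UMI, against 4.11% and 1.94% of the other cells and 0.816% of granule-rich cells labelled KO and 0 of those labelled WT, with the same upper limit of 0.741%. Thinning left out 100 and 13 *Ly6e*-rich cells and 94 and 53 others with too few UMIs, and the unthinned shares were 29.8% and 19.9% against 8.19% and 5.44%. *Lmo2*, a partner of the SCL transcription factor, stood at 809 against 491 and 872 against 452 CPM, and the SLAM family receptor *Cd48* at 259.9 against 92.3 and 347 against 131 CPM. *Kit*, the stem cell factor receptor, had only 2 and 1 UMIs in *Ly6e*-rich cells, against 35 and 50 UMIs (4.9 and 4.5 CPM) in the other cells. Among cells without a *Cd74* UMI its log2 ratios were -1.79 (-7.14 to 0.80) and -1.10 (-6.44 to 1.44), so its direction was not settled. *Myb*, another progenitor factor, stood at 134 against 146 and 123 against 143 CPM and was not called. Among genes with fewer UMIs, *Sox4* stood at 68.8 against 13.8 and 64.5 against 13.4 CPM.

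Genes that MLL fusions keep active moved little. Of 9 comparable members 2 were higher, *Mef2c* and *Jmjd1c*, and the list medians were 0.37 and 0.36. *Mef2c*, a transcription factor of myeloid and lymphoid progenitors, stood at 648 against 374 and 529.9 against 316 CPM. *Hoxa9* stood at 142 against 117 CPM in the library labelled KO and 137 against 181 CPM in that labelled WT, and *Meis1* at 47.5 against 36.7 and 58.4 against 43.5 CPM. Of the lymphoid-primed progenitor genes 2 of 4 were higher, *Flt3* among them, with list medians of 0.43 and 0.62. *Flt3*, a cytokine receptor often mutated in this disease, stood at 99.7 against 26.6 and 86.6 against 24.5 CPM. *Dntt*, *Ccr9* and *Rag1*, of the same lymphoid-primed list, had 0 UMIs in the *Ly6e*-rich cells, where 3 UMIs would be 3.56 CPM in the library labelled KO and 6.04 CPM in that labelled WT.

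Of the monocyte and macrophage genes, 9 of 11 comparable members were higher and none lower, the sum stood at 6893 against 2708 CPM and 7588 against 3395 CPM, and the list medians were 1.77 and 1.35. Against other cells of the same library and total UMIs the log2 ratios of the sum, 1.35 and 1.16, became 0.60 and 0.81. *Ctss* stood at 807 against 186 and 600.5 against 179.6 CPM. *Irf8*, a transcription factor that directs progenitors to monocytes and dendritic cells, stood at 316 against 78.4 and 409 against 160.3 CPM. *F13a1*, a transglutaminase of monocytes, stood at 328 against 62.2 and 347 against 128 CPM. *Csf1r*, the receptor for the macrophage growth factor, stood at 67.6 against 19.8 and 58.4 against 27.2 CPM. *Ly86*, a partner of the receptor CD180, stood at 336 against 102 and 355 against 105 CPM. *Lgals3*, galectin-3, was 1.66-fold higher in the library labelled KO and 1.40-fold in that labelled WT, short of the limit. At 1000 UMIs per cell *Ctss* was found in 43.3% and 37.4% of *Ly6e*-rich cells, in 11.1% and 14.0% of the others and in 0.816% and 1.01% of granule-rich cells, and the unthinned shares were 54.0% and 56.4% against 16.7% and 21.3%.

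Detection of progenitor and monocyte transcripts in the same thinned *Ly6e*-rich cells differed by gene. *Irf8* was found in 25.8% of the 93 cells labelled KO with a *Cd34* UMI and in 20.8% of those without, and in 6 of 15 (40.0%) against 24.6% where labelled WT. *Ctss* was found in 39.8% against 44.2% and in 2 of 15 (13.3%) against 39.3%, and *Cd74* in 6.45% of the cells labelled KO with *Cd34* against 14.5%. *Mpo* was less frequent beside *Ctss*, in 29.6% of cells with it against 38.9% of those without and in 17.6% against 32.3%. *Ctss* was more frequent beside *Cd74*, in 76.4% of the 55 cells with it against 38.4% of those without where labelled KO, and in 6 of 8 (75.0%) against 35.8% where labelled WT. These shares describe sparse counts within 1 library each, and their intervals overlap for each pair but that of *Ctss* and *Cd74* where labelled KO.

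The 15 genes with the largest differences outside the 6 chosen ones included further membrane and secreted proteins of myeloid cells. *Ms4a6c* and *Ms4a4c*, of the MS4A family of tetraspan proteins, stood at 977 against 207 and 155 against 25.6 CPM in the library labelled KO and at 756 against 177 and 117 against 29.4 CPM in that labelled WT. *Apoe*, a lipid carrier made by macrophages, stood at 1144 against 284 and 1521 against 415 CPM. *Itgb7*, integrin beta 7, stood at 395 against 65.8 and 274 against 69.6 CPM. The endolysosomal nuclease *Pld4* stood at 399.9 against 93.1 and 449 against 116 CPM, and the ribonuclease *Rnase6* at 109 against 17.9 and 113 against 29.9 CPM. *Ccl4*, a chemokine, stood at 169.7 against 30.4 and 153 against 34.2 CPM. Of the remaining genes *Bmyc*, a relative of *Myc*, was 4.91-fold and 5.11-fold higher, *Txndc5*, an oxidoreductase of the endoplasmic reticulum, 4.54-fold and 3.71-fold, *Tsc22d1*, a leucine zipper regulator, 3.88-fold and 4.43-fold, and *Stxbp6*, which binds SNARE proteins, 4.85-fold and 3.97-fold.

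**Figure D3:**
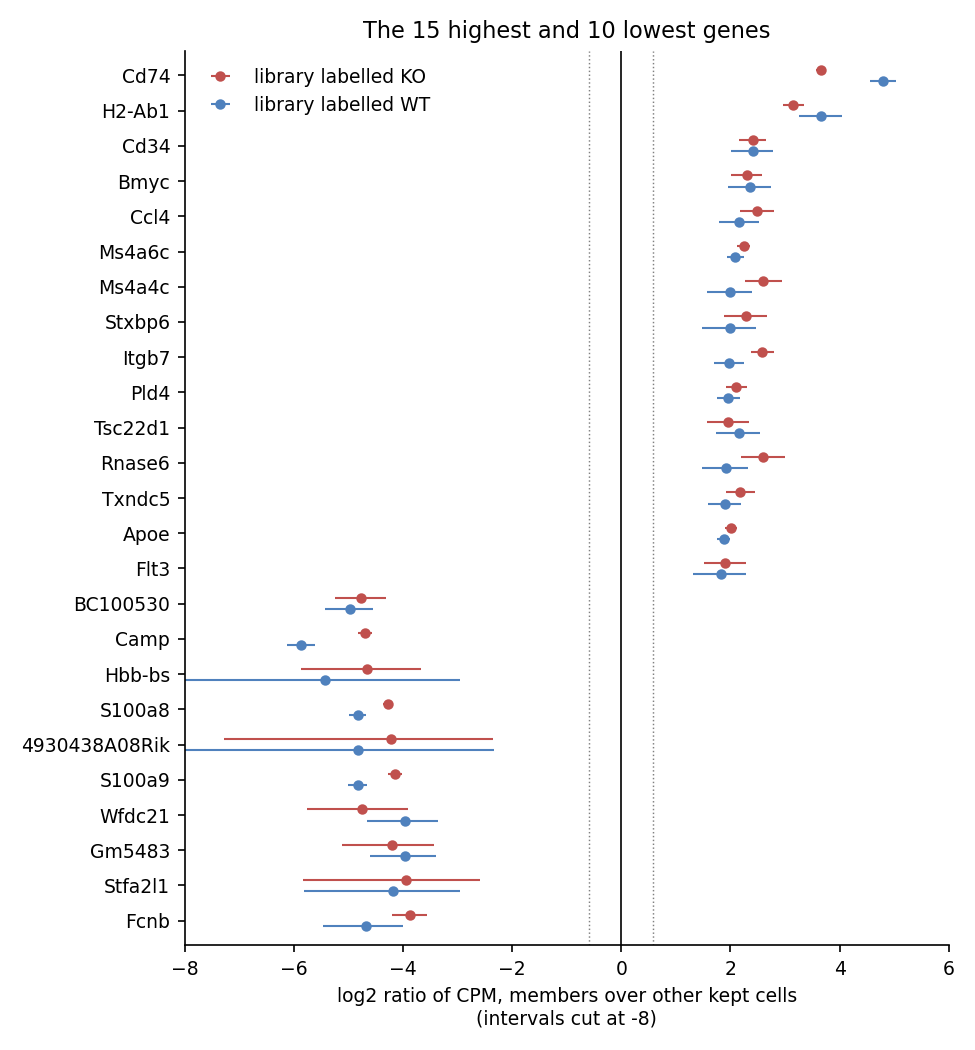
Log2 ratio of CPM between *Ly6e*-rich and other kept cells in both libraries, for the 15 highest and 10 lowest genes outside the 6 chosen ones. Exact 95% counting intervals are shown, cut where they pass the lower end of the axis. *Cd74* is 12.7-fold and 27.8-fold higher in the *Ly6e*-rich cells, and *Camp* 26.0-fold and 58.5-fold lower.

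Granule transcripts of maturing neutrophils ran the other way. Of 13 secondary and tertiary granule genes 12 were lower, the sum fell from 103246 CPM in the other cells to 8288 CPM in the *Ly6e*-rich cells labelled KO and from 108005 to 13794 CPM in those labelled WT, and the list medians were -3.10 and -3.09. *Camp*, the antimicrobial peptide cathelicidin, stood at 600.4 against 15593 and 262 against 15311 CPM. *S100a8* and *S100a9*, the subunits of calprotectin, stood at 1035 against 20031 and 650.2 against 11499 CPM in the library labelled KO and at 693 against 19685 and 528 against 15063 CPM in that labelled WT. *Fcnb*, a ficolin, stood at 94.9 against 1390 and 34.3 against 881 CPM. Genes of the earlier primary granules differed less: 2 of 6 were lower, *Elane* and *Ms4a3*, the medians were -0.001 and -0.20, and the call on the sum, 8878 against 13649 and 9243 against 15002 CPM, was kept in 5 of the 13 other comparisons. *Elane*, neutrophil elastase, stood at 2972 against 7912 and 2720 against 8293 CPM, while *Mpo*, myeloperoxidase, stood at 1716 against 1253 and 1058 against 1205 CPM and *Prtn3*, proteinase 3, at 2774 against 2060 and 3448 against 2760 CPM. *Mmp8*, a late granule collagenase, was the member not called, at 47.5 against 32.8 and 60.4 against 77.2 CPM.

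The other genes with the lowest ratios were *Wfdc21*, at 13.1 against 351 and 42.3 against 665 CPM, and 3 genes at the stefin A locus, *BC100530*, *Gm5483* and *Stfa2l1*. *BC100530* stood at 47.5 against 1290 and 88.7 against 2788 CPM, but near-identical copies at that locus make the split of reads among them uncertain. *4930438A08Rik* had 2 and 1 UMIs in *Ly6e*-rich cells, log2 ratios of -4.22 (-7.28 to -2.36) and -4.82 (-10.13 to -2.34).

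Erythroid and megakaryocyte genes were lower, with 4 of 4 comparable members called, list medians of -4.28 and -2.83 and sums of 52.2 against 741 and 10.1 against 234 CPM. *Hbb-bs*, a beta globin, had 8 UMIs (9.49 against 239 CPM) in *Ly6e*-rich cells labelled KO and 1 UMI in those labelled WT, a log2 ratio there of -5.43 (-10.74 to -2.95). Single other cells held up to 647 and 884 *Hbb-bs* UMIs, so the level of the other cells rests in part on a few of them. With the choice made without *Ly6e* the list gave 0.41 in the library labelled KO and -2.63 in that labelled WT and was not called.

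Cell cycle genes were lower as well. Of 19 comparable mitosis genes 15 were lower and none higher, with sums of 1171 against 2401 and 879 against 1863 CPM and list medians of -1.19 and -1.12, and of 20 S phase genes 7 were lower, with medians of -0.47 and -0.67. Against other cells of the same library and total UMIs the mitosis sum, -1.04 and -1.08 on the log2 scale, gave -0.39 and -0.93 and was not called, whereas in cells thinned to 1000 UMIs it gave -1.28 and -1.65. It was not called among cells with 1000 or more genes either, at -0.40 and -0.74, and the S phase call was kept in 4 of the 13 other comparisons. *Birc5*, survivin, stood at 165 against 376 and 92.7 against 262 CPM. *Ube2c*, which drives exit from mitosis, stood at 98.5 against 289.8 and 119 against 225 CPM. *Rrm2*, a subunit of ribonucleotide reductase, was the S phase gene at 149.5 against 411 and 78.6 against 305 CPM, whereas *Mcm6* of the replicative helicase stood at 121 against 119 and 101 against 109 CPM. Of 13 nucleolar genes 0 were called, and *Npm1* stood at 729.8 against 773 and 756 against 596 CPM. Ribosomal protein genes took 14.1% of UMIs against 11.6% in the library labelled KO and 18.0% against 14.3% in that labelled WT, with 0 of 77 called.

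**Figure D4:**
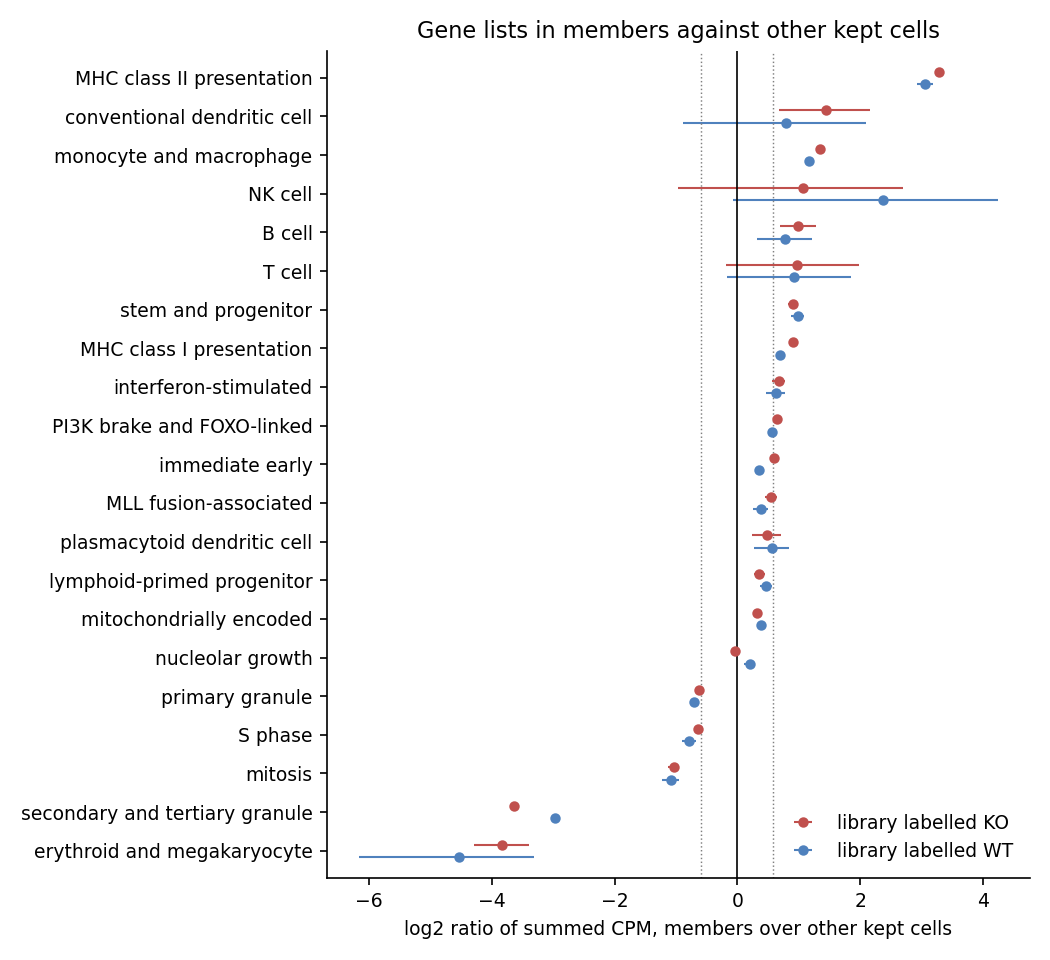
Log2 ratio of the summed UMIs of each gene list between *Ly6e*-rich and other kept cells in both libraries, with exact 95% counting intervals. MHC class II genes are highest among the well-counted lists at 3.28 and 3.06, and erythroid and megakaryocyte genes (-3.83 and -4.54) and late granule genes (-3.64 and -2.97) are lowest.

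MHC class I genes, which present peptides from inside the cell, showed a smaller difference, with 6 of 9 comparable members higher, list medians of 0.80 and 0.88, and sums of 9597 against 5134 and 6081 against 3752 CPM. *H2-D1*, a heavy chain, stood at 3392 against 1693 and 2110 against 1306 CPM. *Tap2*, of the peptide transporter, stood at 135 against 79.7 and 181 against 86.6 CPM, and *Psmb8*, of the immunoproteasome, at 878 against 542 and 883 against 430.1 CPM. The shared light chain *B2m* stood at 3962 against 2115 and 2057 against 1431 CPM and fell short of the limit in the library labelled WT. Interferon-stimulated genes other than *Ly6e* were mostly too sparse. Only 4 of 29 could be compared and 1 was higher, the nucleotide hydrolase *Samhd1* at 119 against 73.3 and 181 against 84.0 CPM, with list medians of 0.69 and 0.68. The list was higher as a sum, at 1.59-fold and 1.54-fold, near the limit, and kept that call in 5 of the 13 other comparisons.

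The genes around *Pik3ip1*, brakes on PI3 kinase and targets of the FOXO factors that this kinase turns off, had 4 of 11 comparable members higher and none lower, with medians of 0.68 and 0.56. Over all genes compared 8.07% were higher. These were *Klf6*, *Txnip*, *Tsc22d3* and *Cdkn1b*. *Txnip*, which limits glucose uptake, stood at 106 against 59.1 and 139 against 72.5 CPM. *Tsc22d3*, the glucocorticoid-induced leucine zipper, stood at 681 against 390.4 and 607 against 349 CPM. *Cdkn1b*, the cell cycle inhibitor p27, had 16 and 25 UMIs, and its interval in the library labelled KO reached from -0.19 to 1.46. As a sum the list was 1.56-fold and 1.49-fold higher and was not called. Against other cells of the same library and total UMIs its log2 ratios were 0.16 and 0.23. Among 10 immediate early genes, which respond within minutes to cell handling as well as to growth signals, 1 was higher, *Fos* at 3311 against 1748 and 2626 against 1569 CPM, and the medians were 0.52 and 0.39. The log2 ratios of their sum were 0.59 and 0.36, and 0.06 and 0.06 against other cells of the same library and total UMIs. Of 9 mitochondrially encoded genes 0 were called, with medians of 0.28 and 0.41.

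Defining markers of B, T and NK cells were at or near 0. *Cd79a*, *Pax5* and *Ms4a1* of B cells had 0 UMIs in the *Ly6e*-rich cells, and the B cell sum, 145 against 72.8 and 92.7 against 54.1 CPM, came wholly from *Cd79b* in the *Ly6e*-rich cells and mostly from it, at 68.4 and 51.5 CPM, in the others. T cell markers gave 10 UMIs in each library with *Cd3d*, *Cd3e* and *Cd3g* at 0, and NK cell markers 4 and 3 UMIs. Conventional dendritic cell markers gave 22 and 5 UMIs, 26.1 against 9.61 and 10.1 against 5.82 CPM. In *Ly6e*-rich cells with a *Cd74* UMI they stood at 117 CPM, 14 UMIs, against 11.1 CPM in those without, where labelled KO. Where labelled WT they stood at 95.9 CPM, 2 UMIs, against 6.31 CPM. Of the plasmacytoid dendritic cell genes 1 of 2 was higher, the transcription factor *Tcf4* at 90.2 against 36.6 and 90.7 against 36.3 CPM.

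Levels were also followed along groups of cells, which at so few UMIs cannot tell a gradual change from a mixture of cells. Cells thinned to 1000 UMIs were grouped by their UMIs of the 6 genes, from 0 through 1, 2 and 3 to 4 up to 5 or more. *Cd34* stood at 11.9, 61.1, 145, 226 and 342 CPM along these groups in the library labelled KO and at 8.72, 22.3, 84.7, 67.6 and 128 CPM in that labelled WT, where the last 3 intervals overlapped. The stem and progenitor sum went from 678 to 1804 CPM and from 662 to 1837 CPM. Late granule genes went from 151313 to 7968 and from 162694 to 15023 CPM, and mitosis genes from 2498 to 795 and from 1744 to 244 CPM. Monocyte genes in the library labelled KO were at 6665 CPM with 3 to 4 UMIs and 6489 CPM with 5 or more, so there the rise ended before the last group, while in that labelled WT they went from 3311 to 9128 CPM. The last group had 219 cells labelled KO and 86 labelled WT.

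**Figure D5:**
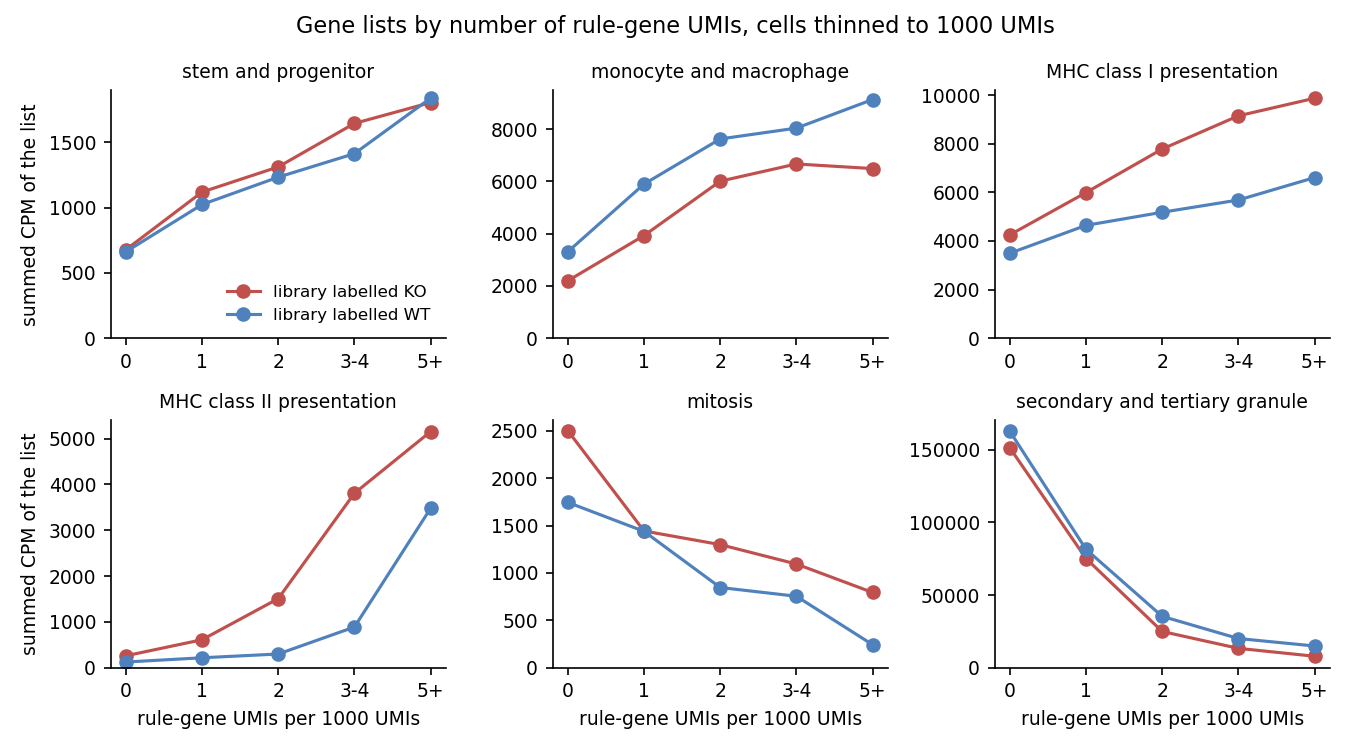
CPM of gene lists in kept cells thinned to 1000 UMIs and grouped by their UMIs of the 6 chosen (rule) genes, in both libraries, on linear axes. Late granule and mitosis genes are lower and MHC class I and class II and stem and progenitor genes higher in the group with 5 or more UMIs than in the group with 0, in each library.

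The other cells held all of the 10% of kept cells richest in late granule transcripts, and the *Ly6e*-rich cells none. Without the 25% of kept cells richest in these transcripts, 257 genes were higher and 301 lower, of which 235 and 248 were among the original 368 and 295, and the list of MHC class II genes had a log2 ratio of 2.79 and that of monocyte genes 1.02 in the library where each was smaller. Against other cells of the same library and total UMIs, 440 genes were higher and 219 lower, of which 212 and 163 were among the original ones.

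Between the libraries, within the *Ly6e*-rich cells, 669 of 4559 genes (14.7%) were 1.5-fold or more higher in the library labelled KO and 650 (14.3%) lower. Among the other cells the numbers were 143 and 298, and 94 and 190 genes differed the same way in both cell groups. The *Ly6e*-rich cells were fewer, so counting error alone spreads their ratios more, and the median log2 ratio over all genes was 0.01 in *Ly6e*-rich cells and 0.02 in the others. No difference between the genotypes can be drawn from it, since library and genotype cannot be told apart.

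MHC class II genes were higher in the library labelled KO, at 4681 against 1447 CPM, which is 1.69 on the log2 scale, and the other cells showed 1.47. MHC class I genes gave 0.66 in *Ly6e*-rich cells and 0.45 in the others. Late granule genes gave -0.73 in *Ly6e*-rich cells, at 8288 against 13794 CPM, and -0.07 in the others, but 1 gene set the sign: *Chil3*, a chitinase-like protein, stood at 2283 CPM in the first library and 10621 CPM in the second. Without it the list stood at 6005 against 3173 CPM, 0.92, and at 0.04 in the other cells, and *Camp* (1.20), *S100a8* (0.58), *S100a9* (0.30) and *Ltf* (2.70) were higher in the library labelled KO. Stem and progenitor genes gave 0.00 against 0.07 in the other cells, and mitosis genes gave 0.41 against 0.37 in the other cells.

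On the log2 scale, the genes with the highest ratios of the library labelled KO to that labelled WT included *Dnajc17* (3.32 with 1.36 to 6.43, against 0.07 in the other cells), *Nras* (2.94, against 3.09), *Ltf* (2.70, against 0.24) and *Pla2g12a* (2.43, against 0.59). *Nras*, a GTPase of growth factor signaling, was the one with the same difference outside the population, at 154 against 20.1 CPM in *Ly6e*-rich cells and 229.9 against 26.9 CPM in the others. Single cells weighed on these values: 1 other cell labelled KO held 81 UMIs and 1 *Ly6e*-rich cell 28, against at most 5 and 1 where labelled WT. An *Nras* UMI was found in 258 of 3015 other cells labelled KO and 260 of 3655 labelled WT. *Dnajc17*, *Ltf* and *Pla2g12a* rested on 2 to 7 UMIs in the library labelled WT, and 1 *Ly6e*-rich cell labelled KO held 25 of 64 *Pla2g12a* UMIs. The 5 lowest were *Stfa1* (-3.17, against -0.995), *Car2* (-3.15, against -0.96), *Cenpf* (-2.76, against -1.01), *Cbx5* (-2.76 with -5.23 to -0.87, against -0.57) and *Cenpe* (-2.69, against -0.56), and the last 3 rested on 3 to 5 UMIs in the library labelled KO. Of the 19 *Cenpe* UMIs in *Ly6e*-rich cells labelled WT, 14 lay in 1 cell.

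Sex-linked transcripts were counted in both libraries, and the leukemia that a cell came from is not marked. *Xist*, transcribed from the inactive X chromosome, stood at 221 CPM in *Ly6e*-rich cells and 82.5 CPM in the others in the library labelled KO and at 516 and 265 CPM in that labelled WT. The sum of 4 Y-linked genes stood at 154 against 97.8 CPM and, with 7 UMIs, 14.1 against 13.5 CPM. Of cells with *Xist* and no Y-linked UMI, 21.7% of 446 labelled KO and 7.10% of 1620 labelled WT were *Ly6e*-rich, and of cells with a Y-linked UMI and no *Xist*, 14.1% of 562 and 2.13% of 94. The last share rests on 2 *Ly6e*-rich cells, and a UMI from free RNA cannot be told from a cell's own, so these shares do not assign cells to a sex. The part of single leukemias in the results was not tested.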

How the data were processed

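Counts of UMIs per gene and cell were deposited by the authors as a matrix of 27998 genes and 8309 cells. The submitters' processing notes name Cell Ranger 1.3.1 and mm10 (GRCm38), while the study's methods give another Cell Ranger version. Cells carry a suffix for the library, which the study's published code assigns to genotype (Cre-positive first), and the labels define *Mx1-Cre*-positive as KO. The methods describe a 10x 3′ v1 kit aimed at 6000 cells per library, sequenced on a NextSeq 500, with singlets kept at the sort.

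Counts were summed over cells and divided by the summed UMIs (CPM). Cells with under 500 genes were left out, no doublet caller was run, and 1 alternative left out the 5% of cells with most UMIs. Genes were compared where at least 10 UMIs were expected in the *Ly6e*-rich cells of each library. With 1 library per genotype no test was run: intervals are exact (Poisson for CPM, Clopper-Pearson for shares, conditional binomial for ratios) at 95%, UMIs of 1 cell are not independent, and 3 UMIs served as the floor where none was found. Genes were named by rule: the 15 highest and 10 lowest by the smaller of both log2 ratios, the 5 extremes each way between libraries, and list members, of which a few are not reported here. The 6 genes, the lists and the comparisons were chosen with earlier results of these data known. Ties at the limit and thinning used a fixed seed, and the code was checked on simulated data. Python 3.11.15, numpy 2.4.6, scipy 1.17.1 and pandas 2.3.3 were used. Gene positions are from GENCODE, and upstream sequences were taken from RefSeq, where some genes had no entry.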

Additional observations from a re-analysis of the deposited data

Results flagged for a closer look

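Cells under the limit of 500 genes took no part in the comparisons, yet some reached the share that defines *Ly6e*-rich cells: 64 of 695 labelled KO, or 9.21% (7.16 to 11.6%), and 3 of 203 labelled WT, or 1.48% (0.306 to 4.26%). Their median depths were 907 and 1063 UMIs.

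Of the genes compared, 22 were 1.5-fold or more in opposite directions in the 2 libraries, and 7 of these had both counting intervals on their own side of 0. The difference between the libraries was not tested. The log2 ratios of 6 of them, *Ly6e*-rich over other cells, labelled KO first, were -0.817 and 0.61 for *Wdr12*, a ribosome assembly factor, and 0.923 and -1.53 for *Nop14*, of the same process. They were -0.80 and 0.69 for *Mettl10*, a methyltransferase, and 0.606 and -0.69 for *Nsrp1*, a splicing regulator of which 1 cell held 18 UMIs. *Prg2*, the eosinophil major basic protein, gave 0.728 and -2.68 but was found in 4 and 1 *Ly6e*-rich cells, 1 of which held 35 UMIs. *Spp1*, osteopontin, gave -2.54 and 1.41, found in 20 and 27 *Ly6e*-rich cells with up to 27 UMIs in 1 cell. The other 4 genes rest on 4 to 79 UMIs in the *Ly6e*-rich cells of a library.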

How the results depend on the processing

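No paired analysis was possible because each genotype is 1 library. The ratio of the libraries' shares, 2.74, became 1.52 among cells with 1000 or more genes, 1.98 thinned to 1000 UMIs, 3.95 for the highest 5%, 1.71 for the highest 20% and 1 by construction within each library. In limits chosen after seeing the data, it was 1.73 at 3 or more and 2.20 at 4 or more of 1000 UMIs. The 368 higher and 295 lower genes became 219 and 189 with 1000 or more genes, 216 and 190 thinned, 192 and 165 at 5%, 162 and 131 at 30 expected UMIs and 1395 and 580 with no filter beyond 1 UMI, and 656 were higher at 20%. Of the 219 and 189 genes, 169 and 141 were among the original ones. The 9 higher lists became 5 thinned and 5 with 3 of the 6 genes detected. The 5 lower lists became 2 with 1000 or more genes, matched on UMIs or without *Ly6e*, and 3 with every deposited cell, thinned, at 20%, without *Ptprcap* or with 3 genes detected. Between libraries, 669 higher genes became 393 at 5% and 246 at 30 expected UMIs, and 650 lower became 331, 205 and, at 20%, 1038. Leaving out granule-rich cells or cells with *Cd74* and summing late granule genes without *Chil3* were also chosen after seeing the data.

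Signs turned for *H2-Ab1* without *Cd74* cells (-0.20), for *Cenpf* between libraries when thinned (0.78) and at 5% (0.29), for *Cenpe* likewise (0.19 and 0.29), and for *Pik3ip1* chosen by the other genes when thinned (-0.031). The cause was not tested. No list called in both libraries reversed in both, but in 1 library the sign of a called list turned 4 times: erythroid genes labelled KO without *Ly6e* (0.41), T cell markers labelled KO matched on UMIs (-0.38) or without *Ptprcap* (-0.19), and conventional dendritic cell markers labelled WT with 3 genes detected (-0.22). Nucleolar genes, not called (-0.03 and 0.20), turned 7 times. Of 273 list values 111 moved beyond their interval. Depth limits the rest: 6 to 8 UMIs placed a median cell, so a cell outside the population is not shown to lack these transcripts.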
